A study of Mus musculus with 6 samples.

Results

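A set of transcription factor genes that pattern urogenital and other embryonic tissues was followed in basal cells of the adult mouse prostate. They are the SOX genes Sox2, Sox4 and Sox9, the sine oculis homeobox gene Six4, the T-box genes Tbx2 and Tbx3, the MEIS genes Meis1 and Meis2, and the PITX gene Pitx1. These 9 genes were given by name, and they were found among the 25323 gene identifiers (25314 symbols) to which the deposited transcripts could be matched. Proximal basal cells came from the ducts nearest the urethra and distal basal cells from the ducts toward the gland tips. Both groups were C57BL/6 mice of 8 to 12 weeks with no treatment named in the labels, and each group comprised 3 RNA sequencing libraries. Whether a group's libraries stem from different mice is not given, and the p-values therefore measure library spread that may be purely technical. The sort that isolated the basal cells is described without its antibodies and gates.

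SOX proteins bind DNA through a high-mobility-group box, and sine oculis, MEIS and PITX proteins through homeodomains of different classes. T-box proteins carry the DNA-binding domain for which they are named, and TBX2 and TBX3 act mainly as repressors. MEIS proteins bind DNA together with PBX and HOX proteins, and sine oculis proteins recruit EYA proteins as coactivators. In mouse, Sox9 is needed for the outgrowth of the prostatic buds from the urogenital sinus.

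The libraries held 22800000 to 29400000 sequenced fragments, as implied by the widths of the deposited confidence intervals, and 9947 to 10341 genes reached 1 FPKM (fragments of a transcript divided by its length and by the depth of the library) in a library. The log2 values of 2 libraries of a group correlated over genes at 0.968 to 0.987, and those of 2 libraries of different groups at 0.95 to 0.970. The basal keratins Krt15 and Krt14 averaged 3590 and 2190 FPKM in proximal libraries, and 2190 and 2720 FPKM in distal libraries. Proximal replicates 2 and 3 stood apart from the other libraries in transcripts of seminal vesicle secretory proteins. Svs5 was at 0.391, 107 and 239 FPKM in proximal replicates 1, 2 and 3, against 0.325, 0.860 and 0.393 FPKM in distal replicates 1, 2 and 3. Distal replicate 1 stood apart from the other distal libraries in immediate early genes, which are induced within minutes by stress or growth signals and also by tissue dissociation. A list of 15 dissociation and immediate early genes was summed, which also holds the heat shock genes Hspa1a and Hspa1b. The sum was 6930, 7830 and 8830 FPKM in the proximal libraries, against 9610, 17200 and 17900 FPKM in the distal libraries, again in the order of replicates 1, 2 and 3. All values per library below are in this order.

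Meis2 was the only one of the 9 genes that passed the test between proximal and distal basal cells. Levels were compared on log2(FPKM + 1) with limma, proximal minus distal, and an adjusted p under 0.05 over all genes tested was required. In all, 8 genes reached the mean of 1 FPKM needed for testing, and Pitx1 did not. Of these 8, 1 was called higher in proximal cells, where 4.56% of all 10293 genes tested were called higher. None was called lower, where 2.51% of all genes were. The median difference over all genes tested was -0.01 on the log2 scale. At an unadjusted p under 0.05, which 24.1% of all genes reached, Meis2 and Sox4 passed and the other 6 did not. The same pair were the genes whose 3 proximal values did not overlap the 3 distal values, which was so for 28.9% of all genes tested. Of the 8 fold changes, 4 were above 0 and 4 below.

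**Figure D1:**
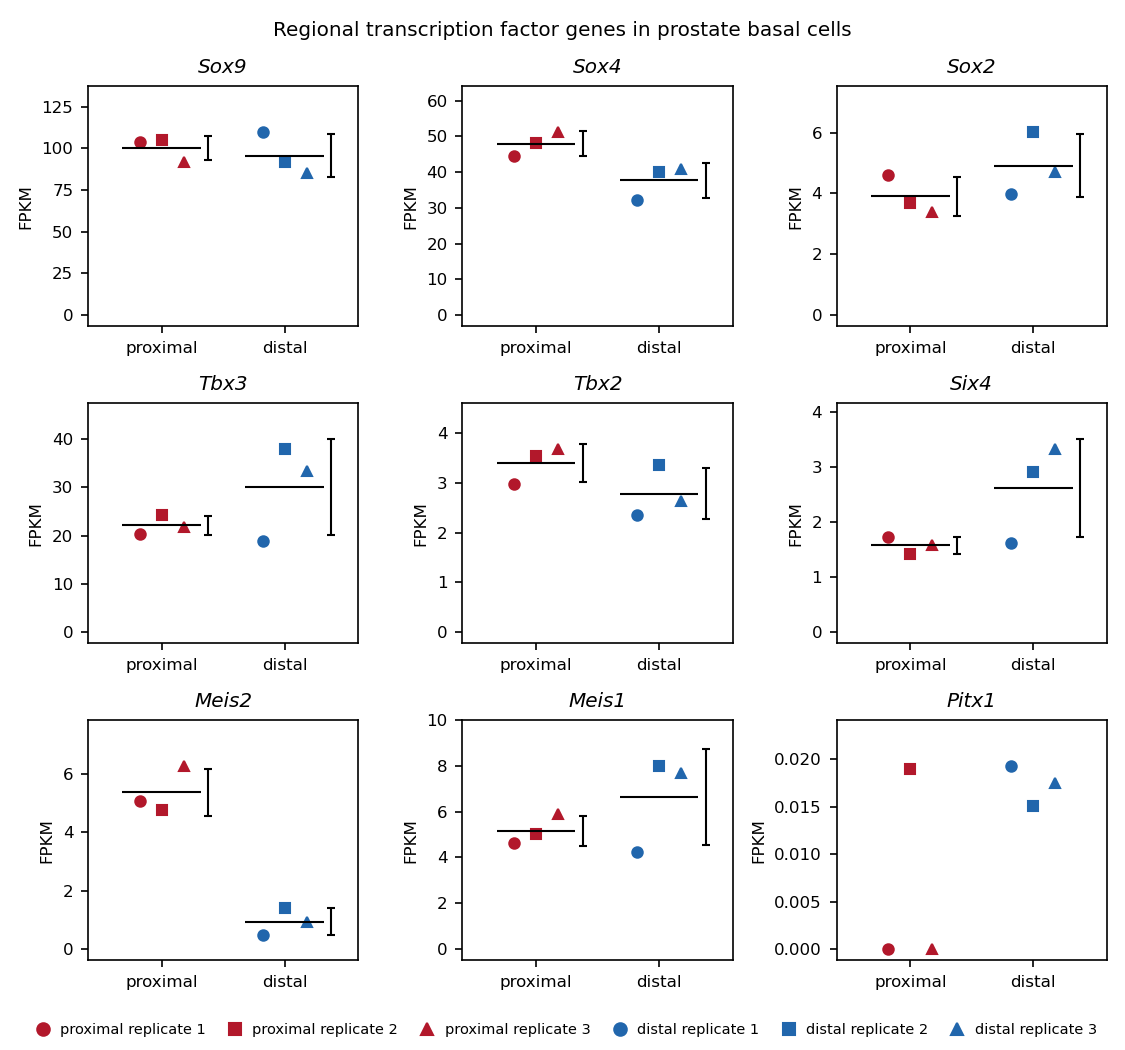
FPKM of the 9 genes in each library (symbols: replicate 1, 2 and 3), proximal at left in red and distal at right in blue, with the mean (line) and SD (bar, n = 3) except for Pitx1. Proximal values of Meis2 lie between 4.77 and 6.27 FPKM and distal values at or below 1.39 FPKM, the proximal values of Sox4 lie above the distal ones by a smaller margin, and in Tbx3, Six4 and Meis1 distal replicate 1 lies among or below the proximal libraries.

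Levels spanned a wide range. Sox9 had the highest mean over the 6 libraries, 98.0 FPKM, at the 93.7th percentile of the genes tested. It was followed by Sox4 with 42.8 FPKM, Tbx3 with 26.1 FPKM, Meis1 with 5.90 FPKM, Sox2 with 4.40 FPKM, Meis2 with 3.15 FPKM, Tbx2 with 3.09 FPKM and Six4 with 2.09 FPKM. In proximal libraries, Sox9, Sox4 and Tbx3 kept their order with no overlap between neighbours. Below them, the proximal ranges of Meis2 and Meis1 overlapped, as did those of Sox2 and Tbx2, those of Meis1 and Sox2 met at 4.61 FPKM, and the proximal range of Six4 lay below all of these. In distal libraries the ranges of Sox4 and Tbx3 overlapped, as did those of Meis1 and Sox2 and those of Tbx2 and Six4, and Meis2 came last of the 8. Meis2 had the highest mean of the 5 lower genes in proximal cells and the lowest mean of the 8 in distal cells, and no other gene changed its place in the order by more than 1.

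The MEIS genes encode TALE homeodomain proteins, and both lie on the reverse strand of their chromosomes. Meis2 lies at chr2:115863064-116065839 on GRCm38, the assembly also called mm10. Its summed level was 5.05, 4.77 and 6.27 FPKM in proximal libraries, against 0.472, 1.39 and 0.921 FPKM in distal libraries. All proximal values lay above all distal values, and the lowest proximal value was 4.77 FPKM where the highest distal value was 1.39 FPKM. The means were 5.36 ± 0.796 FPKM in proximal and 0.928 ± 0.459 FPKM in distal libraries (SD, n = 3 each), a ratio of 5.78. Adding 1 FPKM before the log2 shrinks differences at low levels, and on that scale the difference was 1.74 with a standard error of 0.20 (limma adjusted p = 0.00276). In the order of p-values over all 10293 genes Meis2 ranked 90th. Its distal mean lay under 1 FPKM, so Meis2 reached the mean needed for testing only through its proximal libraries. With no filter on low values it also passed (limma adjusted p = 0.0166). The libraries are bulk samples, so fewer cells expressing the gene and less RNA per cell cannot be told apart. Fragments were not derived for the 488-base RNA of Meis2 described below. The other Meis2 transcripts correspond to about 348, 344 and 590 fragments in proximal libraries. In distal libraries they correspond to 48.6, 90.2 and 76.3 fragments.

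In all, 8 deposited transcripts were assigned to Meis2, and 7 of them had a value above 0 in at least 1 library. The match used position and length but not strand. Read on the strand of Meis2, these transcripts begin at 4 sites, and the proximal values lay above the distal values without overlap at each. At position 116065832 begins a 488-base RNA that lies wholly inside an annotated first exon of Meis2 and contains no coding sequence. It was assigned to Meis2 by this overlap, and its own strand was not established. This short RNA was at 2.19, 1.66 and 2.00 FPKM in proximal libraries, against 0, 0.722 and 0.272 FPKM in distal libraries. It was the only Meis2 transcript with a mean of at least 1 FPKM and so the only one tested by itself. Its difference of 1.18 with a standard error of 0.27 did not pass over 13878 transcripts (limma adjusted p = 0.0885), of which 3.06% did.

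The 4 long transcripts that begin at position 116065058 together had 1.68, 1.62 and 1.16 FPKM in proximal libraries, against 0.368, 0.483 and 0.293 FPKM in distal libraries, a ratio of means of 3.90. The 2 long transcripts that begin further downstream, at position 116064621, together had 0.447, 0.563 and 1.5 FPKM in proximal libraries, against 0.105, 0.0857 and 0.293 FPKM in distal libraries, a ratio of 5.19. Taken over both long starts, Meis2 had 2.32 ± 0.292 FPKM in proximal and 0.542 ± 0.0613 FPKM in distal libraries (SD, n = 3 each), a ratio of 4.28. A transcript of 5490 bases that resembles an annotated retained-intron form and begins at position 116062363 was at 0.732, 0.936 and 1.61 FPKM in proximal libraries. In distal libraries it was listed at 0, 0.10 and 0.0623 FPKM. The higher proximal level was therefore seen in the long transcripts and in the 2 other RNAs alike. Which of the long transcripts carried the signal differed between libraries of 1 group. Cufflinks divides fragments among transcripts that share nearly all their exons, so only the sums per start are given.

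**Figure D2:**
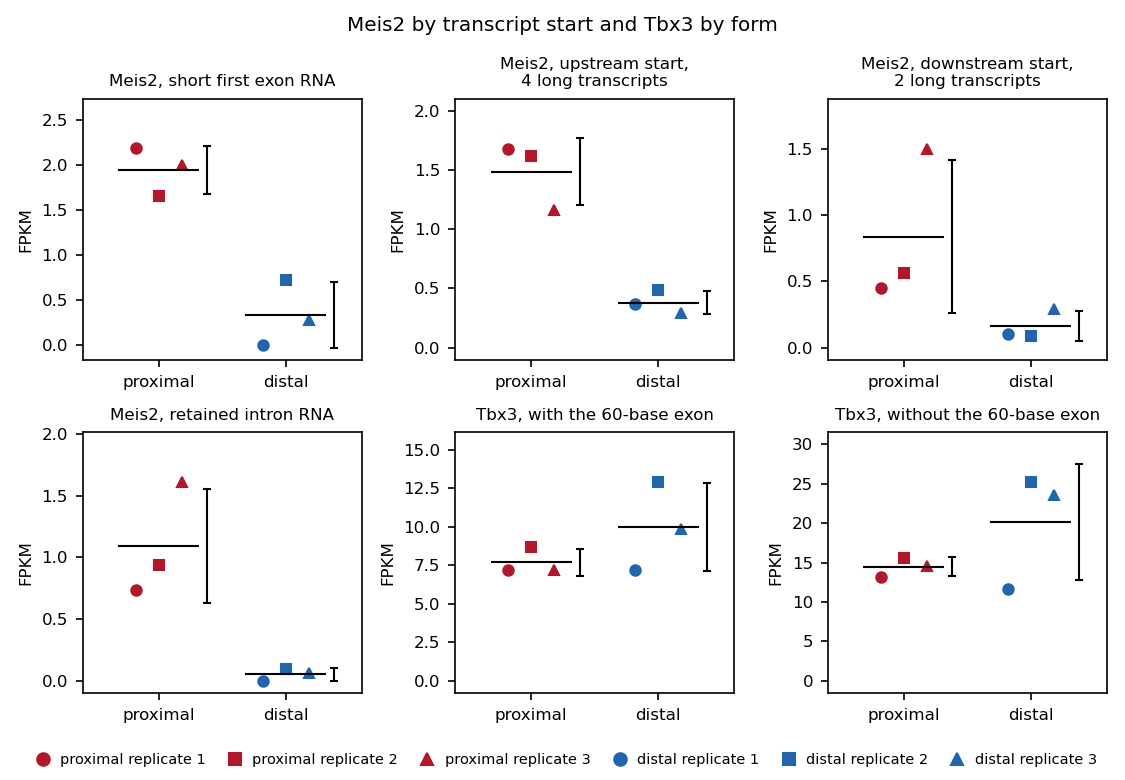
FPKM of Meis2 transcripts grouped by start site and of both Tbx3 forms in each library, proximal at left in red and distal at right in blue, with mean (line) and SD (bar, n = 3). At each of the 4 Meis2 starts the 3 proximal values lie above the 3 distal values, whereas for both Tbx3 forms distal replicate 1 lies within or below the proximal range and distal replicates 2 and 3 lie above it.

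The 300-base window of RefSeq around the downstream Meis2 start (GRCm38.p6, chr2:116064570-116064869, reverse strand) and that of Meis1 (chr11:19018920-19019219, reverse strand) are printed to set the start regions of the MEIS paralogs side by side. The capitals mark a CCAAT box (CCAAT, or ATTGG on the other strand), a TATA box (TATAAA) and a SOX core (ACAATG, or CATTGT on the other strand).
Meis2: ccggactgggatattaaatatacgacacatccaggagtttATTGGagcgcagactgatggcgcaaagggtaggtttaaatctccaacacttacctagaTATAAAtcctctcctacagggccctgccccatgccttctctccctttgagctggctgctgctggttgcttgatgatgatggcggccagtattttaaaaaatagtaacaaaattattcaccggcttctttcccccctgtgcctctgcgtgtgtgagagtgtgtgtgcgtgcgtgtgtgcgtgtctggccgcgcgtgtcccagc
Meis1: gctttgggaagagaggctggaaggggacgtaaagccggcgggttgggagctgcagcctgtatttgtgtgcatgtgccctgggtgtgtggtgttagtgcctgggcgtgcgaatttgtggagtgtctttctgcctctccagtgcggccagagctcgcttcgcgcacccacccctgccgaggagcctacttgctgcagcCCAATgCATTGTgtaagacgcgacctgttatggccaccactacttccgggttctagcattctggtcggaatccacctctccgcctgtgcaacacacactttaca
The Meis2 window had 51% G and C and 13 CpG dinucleotides, and the Meis1 window had 58.3% and 15, where the medians over 32851 windows were 52.7% and 7. A CCAAT box was found in both windows and in 37.4% of all windows. The TATA letters of the Meis2 window were found in 13.6% of all windows, and the SOX core of the Meis1 window in 12.6%. Both strands were also searched for TGACAG (MEIS and TGIF proteins), ACAAAG (SOX), GGTGTGA (T-box) and GGATTA (PITX). Neither window holds any of these, and 19.2%, 18.7%, 3.98% and 7.06% of all windows do. No other motif overlapped those in capitals.

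Meis1, at chr11:18879817-19018985, did not pass the test. It was at 4.61, 5.00 and 5.89 FPKM in proximal libraries, against 4.22, 8.00 and 7.67 FPKM in distal libraries. Distal replicates 2 and 3 lay above all proximal libraries and distal replicate 1 lay below them. The means were 5.17 ± 0.660 FPKM in proximal and 6.63 ± 2.10 FPKM in distal libraries (SD, n = 3 each), and the difference was -0.27 with a standard error of 0.22 (limma adjusted p = 0.495). Without both libraries numbered 1 it was -0.46 with an adjusted p of 0.0417 in limma, and on leaving out each library it was -0.52 to -0.13 and did not pass (limma adjusted p = 0.0535 to 0.836). The smallest difference was that without distal replicate 2.

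Meis1 RNA was divided between a form of 3346 bases, which equals the annotated Meis1-209, and a form of 3441 bases. The share of the 3346-base form was 36.2%, 61.5% and 62.1% in proximal libraries, against 31.1%, 86.0% and 63.1% in distal libraries (two-sided exact permutation p = 0.8). It was low in replicate 1 of both groups. The non-coding genes Gm16140, on the opposite strand, and Gm37818, on the same strand, overlap Meis1 with their exons. Within the span of the 3346-base form, they cover 896 and 1029 bases of the exons of all annotated Meis1 transcripts. How many of these bases belong to the 3346-base form was not determined. Over these stretches their RNA cannot be told apart from that of Meis1.

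The balance of the paralogs followed from these values. The log2 ratio of Meis1 to Meis2, each with 1 FPKM added, was -0.11, 0.06 and -0.08 in proximal libraries, against 1.82, 1.91 and 2.18 in distal libraries. Summed over all transcripts, the levels of both were thus nearly equal in proximal libraries, and Meis1 was the higher in distal libraries. The Meis2 sum includes the short RNA without coding sequence and the retained-intron RNA. Over both long starts alone, Meis2 averaged 2.32 FPKM in proximal libraries, below the 5.17 FPKM of Meis1. The ratio of the summed levels differed by -2.01 with no overlap. Its two-sided exact permutation p was 0.1, the smallest that 3 against 3 libraries allow, and 0.2 after adjustment over the 4 ratios computed. The third MEIS gene, Meis3, averaged 3.85 ± 0.897 FPKM in proximal and 3.54 ± 0.10 FPKM in distal libraries (SD, n = 3 each) and did not pass (limma adjusted p = 0.809). It was singled out as a direct relative of Meis1 and Meis2 after its values were seen.

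Of the 18 MEIS, PBX, PREP, TGIF, IRX and Mkx genes, 13 were tested. Meis2 rose, Tgif2 and Irx2 fell and 10 did not pass, with a median difference of -0.09. Tgif2, a homeodomain repressor that binds the same core as MEIS proteins, was at 20.6, 14.6 and 15.2 FPKM in proximal libraries, against 24.2, 29.3 and 32.9 FPKM in distal libraries (log2 difference -0.75, SE 0.16, limma adjusted p = 0.0352). Irx2, an Iroquois homeodomain factor, was at 4.99, 4.28 and 4.69 FPKM in proximal libraries, against 6.60, 10.9 and 11.6 FPKM in distal libraries (log2 difference -0.89, SE 0.20, limma adjusted p = 0.0362). The groups did not overlap in either gene, but neither call held on leaving out proximal replicate 2 or 3 or distal replicate 2 or 3, with adjusted p-values of up to 0.145 for Tgif2 and 0.149 for Irx2. Both calls were also lost with no filter on low values (limma adjusted p = 0.0738 for Tgif2 and 0.0827 for Irx2) and with the highest transcript in place of the sum (0.122 for Tgif2 and 0.0511 for Irx2). Tgif1, the most abundant gene of the set, averaged 378 ± 19.3 FPKM in proximal and 349 ± 13.4 FPKM in distal libraries (SD, n = 3 each) and did not pass (limma adjusted p = 0.544).

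The genes whose centred log2 profile over the 6 libraries lay closest to that of Meis2 were Anxa8, Myof and Nipal1. Their root mean square differences from it were 0.111, 0.177 and 0.212 on the log2(FPKM + 1) scale. Anxa8, an annexin, was at 27.6, 21.9 and 29.1 FPKM in proximal libraries, against 5.79, 8.61 and 8.11 FPKM in distal libraries. Myof, which encodes the membrane repair protein myoferlin, differed by 1.72, and Nipal1, which encodes a magnesium transporter, by 1.47 on the log2 scale. The likeness is a description of 6 libraries in 2 groups, and a gene chosen for it has to differ between the groups as Meis2 does.

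None of Sox2, Sox4 and Sox9 passed the test between the regions. Sox9, at chr11:112782224-112787760 on the forward strand, was at 104, 105 and 92.0 FPKM in proximal libraries, against 110, 91.7 and 85.3 FPKM in distal libraries. The groups overlapped and the highest library of all was distal. The means were 100 ± 7.12 FPKM in proximal and 95.8 ± 13.0 FPKM in distal libraries (SD, n = 3 each), and the difference was 0.07 with a standard error of 0.12 (limma adjusted p = 0.781). These values rest on 8460 to 10600 fragments a library.

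Sox4, a SOX factor expressed in many progenitor tissues, lies at chr13:28948919-28953713 on the reverse strand. It was at 44.5, 48.2 and 51.3 FPKM in proximal libraries, against 32.1, 39.9 and 41.0 FPKM in distal libraries. Each proximal library was above each distal library, by 44.5 against 41.0 FPKM where the groups came closest. The means were 48.0 ± 3.43 FPKM in proximal and 37.7 ± 4.84 FPKM in distal libraries (SD, n = 3 each), a ratio of 1.27. The difference of 0.35 with a standard error of 0.12 had an unadjusted p of 0.0225 and did not pass over all genes (limma adjusted p = 0.135). An antisense non-coding gene, Gm26735, overlaps 942 of the 2953 bases of the transcript, and it is not stated whether the kit keeps strand.

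Sox2, a factor of stem cells and of some basal and neuroendocrine cells, lies at chr3:34650405-34652461 on the forward strand. It was at 4.61, 3.69 and 3.40 FPKM in proximal libraries, against 3.98, 6.03 and 4.72 FPKM in distal libraries. Values of the groups overlapped. The means were 3.90 ± 0.629 FPKM in proximal and 4.91 ± 1.03 FPKM in distal libraries (SD, n = 3 each), and the difference was -0.26 with a standard error of 0.17 (limma adjusted p = 0.383). Within a library, the log2 ratio of Sox4 to Sox9 differed by 0.28 (two-sided exact permutation p = 0.5) and that of Sox2 to Sox9 by -0.33 (two-sided exact permutation p = 0.3), with overlap in both.

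Of 19 SOX genes, 8 were tested and none passed, with a median difference of 0.22. In limma, 0 of these had an adjusted p under 0.05 and 5 had an unadjusted p under it, which were Sox4, Sox6, Sox13, Sox15 and Sox18, where 24.1% of all genes tested did. Sox15 and Sox18 reached a mean of 1 FPKM only through the proximal libraries, so nothing is read from this count. Sox6, singled out here after its values were seen, was at 5.51, 3.98 and 3.88 FPKM in proximal libraries, against 6.22, 7.56 and 6.31 FPKM in distal libraries. Its difference was -0.50 (limma adjusted p = 0.0940), and without proximal replicate 1 it had an adjusted p of 0.0327. Another 11 SOX genes were below 1 FPKM on average, and Sox1, Sox3 and Sox14 were listed at 0 in all 6 libraries.

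Some low SOX genes known from other cell types were also picked after their values were seen. Sox17, which marks endothelium among other tissues, was at 1.12, 1.45 and 1.27 FPKM in proximal libraries, against 0.605, 0.0934 and 0.127 FPKM in distal libraries. Sox10, a factor of glia, was at 0.550, 1.99 and 1.09 FPKM in proximal libraries, against 0.223, 0.402 and 0.234 FPKM in distal libraries. Sox17 and Sox10 were under the filter and not tested. Sox15 was listed at 2.96, 0 and 4.00 FPKM in proximal libraries and at 0 in all distal libraries, and did not pass (limma adjusted p = 0.149). All genes picked here had the higher mean in proximal libraries, which does not hold for the SOX family as a whole. Sox7, a more abundant SOX gene, was at 8.10, 9.56 and 7.12 FPKM in proximal libraries, against 10.9, 7.31 and 5.53 FPKM in distal libraries. It did not pass (limma adjusted p = 0.846).

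Of 15 genes associated with SOX9 in other tissues, 8 were tested, Sox9 included. Krt19, a keratin of simple and ductal epithelium, was at 759, 787 and 815 FPKM in proximal libraries, against 196, 170 and 212 FPKM in distal libraries, a log2 difference of 2.03 (SE 0.12, limma adjusted p = 1.42e-04). The other 7 tested did not pass, and the median was 0.01. The cartilage collagen gene Col9a1 was listed at 0 in all libraries.

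The T-box genes Tbx2 and Tbx3 encode close paralogs, and Tbx3 was the higher of the pair in every library. Tbx3, at chr5:119670669-119684724 on the forward strand, was at 20.4, 24.3 and 21.7 FPKM in proximal libraries, against 18.9, 38.0 and 33.4 FPKM in distal libraries. Distal replicates 2 and 3 exceeded every proximal library and distal replicate 1 was the lowest of all. The means were 22.2 ± 1.96 FPKM in proximal and 30.1 ± 9.97 FPKM in distal libraries (SD, n = 3 each), and the difference was -0.37 with a standard error of 0.23 (limma adjusted p = 0.375). Without distal replicate 1 it was -0.67 with an adjusted p of 0.0192 in limma, and without distal replicate 2 it was -0.18 with an adjusted p of 0.756.

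Tbx3 RNA occurs with and without an alternative exon of 60 coding bases inside the T-box region, which distinguishes Tbx3-201 from Tbx3-203. The exon is printed in capitals with 15 bases of its neighbouring exons on either side in lower case, which Tbx3-203 joins directly. It is exon 3, at chr5:119675243-119675302 on the forward strand of GRCm38.
Tbx3 exon: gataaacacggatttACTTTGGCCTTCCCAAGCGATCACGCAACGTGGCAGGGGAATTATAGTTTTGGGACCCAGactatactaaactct
The form with the exon was at 7.21, 8.69 and 7.18 FPKM in proximal libraries, against 7.19, 12.9 and 9.88 FPKM in distal libraries. The form without it was at 13.2, 15.6 and 14.6 FPKM in proximal libraries, against 11.7, 25.2 and 23.5 FPKM in distal libraries. The form without the exon was thus the higher one in each library. Neither form passed over all transcripts (limma adjusted p = 0.478 with the exon and 0.519 without it). Each form has 8 exons, and they begin at different positions, 119671018 with the exon and 119670862 without it. The share below is therefore that of the whole form and not a measure of this exon alone. The share of the form with the exon was 35.3%, 35.8% and 33.0% in proximal libraries, against 38.0%, 33.8% and 29.6% in distal libraries. It averaged 34.7 ± 1.47% in proximal and 33.8 ± 4.19% in distal libraries (SD, n = 3 each; two-sided exact permutation p = 0.8), a difference within the spread of the distal libraries.

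Tbx2, at chr11:85832551-85841948 on the forward strand, was at 2.98, 3.54 and 3.69 FPKM in proximal libraries, against 2.36, 3.36 and 2.64 FPKM in distal libraries. The groups overlapped. The means were 3.40 ± 0.370 FPKM in proximal and 2.79 ± 0.520 FPKM in distal libraries (SD, n = 3 each), and the difference was 0.22 with a standard error of 0.15 (limma adjusted p = 0.409). The log2 ratio of Tbx2 to Tbx3 was -2.43, -2.48 and -2.28 in proximal libraries, against -2.57, -3.16 and -3.24 in distal libraries. It was higher in each proximal library than in any distal one, by 0.60 on average, with a two-sided exact permutation p of 0.1, the smallest this design allows, and of 0.2 after adjustment over 4 ratios.

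Of 17 T-box genes, 3 were tested and none passed. The third was Mga, a large protein with a T-box and a helix-loop-helix domain, at 13.9, 17.7 and 13.3 FPKM in proximal libraries, against 8.94, 10.0 and 12.7 FPKM in distal libraries (log2 difference 0.47, SE 0.16, limma adjusted p = 0.120). At an unadjusted p under 0.05 in limma, 1 of the 3 passed, which was Mga. Its difference was 0.03 (limma adjusted p = 0.929) with close matches only and 0.13 (0.719) with the highest transcript in place of the sum. The other 14 were under 1 FPKM on average. Of 14 genes reported as targets or partners of T-box factors, 11 were tested, 1 rose and 10 did not pass, with a median of -0.06. The gene that rose was Shh, the secreted signal of the urogenital epithelium, at 32.1, 31.1 and 28.7 FPKM in proximal libraries, against 16.4, 18.8 and 18.6 FPKM in distal libraries (log2 difference 0.74, SE 0.10, limma adjusted p = 0.00620). The cadherin gene Cdh1 averaged 734 ± 110 FPKM in proximal and 644 ± 28.1 FPKM in distal libraries. The cell cycle inhibitor gene Cdkn1a averaged 203 ± 65.5 FPKM in proximal and 302 ± 67.4 FPKM in distal libraries (SD, n = 3 each). Neither passed (limma adjusted p = 0.479 for Cdh1 and 0.178 for Cdkn1a).

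Six4, a homeodomain gene of muscle, kidney and sensory organ development, lies at chr12:73099609-73113456 on the reverse strand. It was at 1.73, 1.41 and 1.58 FPKM in proximal libraries, against 1.62, 2.90 and 3.33 FPKM in distal libraries. Distal replicate 1 lay within the proximal range and the other 2 distal libraries above it, which were also the highest libraries of Tbx3 and Meis1. The means were 1.57 ± 0.159 FPKM in proximal and 2.61 ± 0.890 FPKM in distal libraries (SD, n = 3 each), and the difference was -0.46 with a standard error of 0.20 (limma adjusted p = 0.215). Without distal replicate 1 it was -0.68 with an adjusted p of 0.0279 in limma. On leaving out each other library it was -0.50 to -0.31 and did not pass. Of the 8 genes of the 9 that were tested, Six4 had the lowest mean over all 6 libraries, with 176 to 456 fragments a library.

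Of 12 sine oculis, EYA and DACH genes, 5 were tested, with a median difference of -0.18. Eya2, a coactivator of sine oculis proteins, rose, at 2.98, 2.80 and 2.70 FPKM in proximal libraries, against 0.769, 0.90 and 1.18 FPKM in distal libraries. Its difference was 0.98 with a standard error of 0.14 (limma adjusted p = 0.00696). The other 4 tested did not pass. With the highest transcript in place of the sum of transcripts, the call of Eya2 was lost (limma adjusted p = 0.125).

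**Figure D3:**
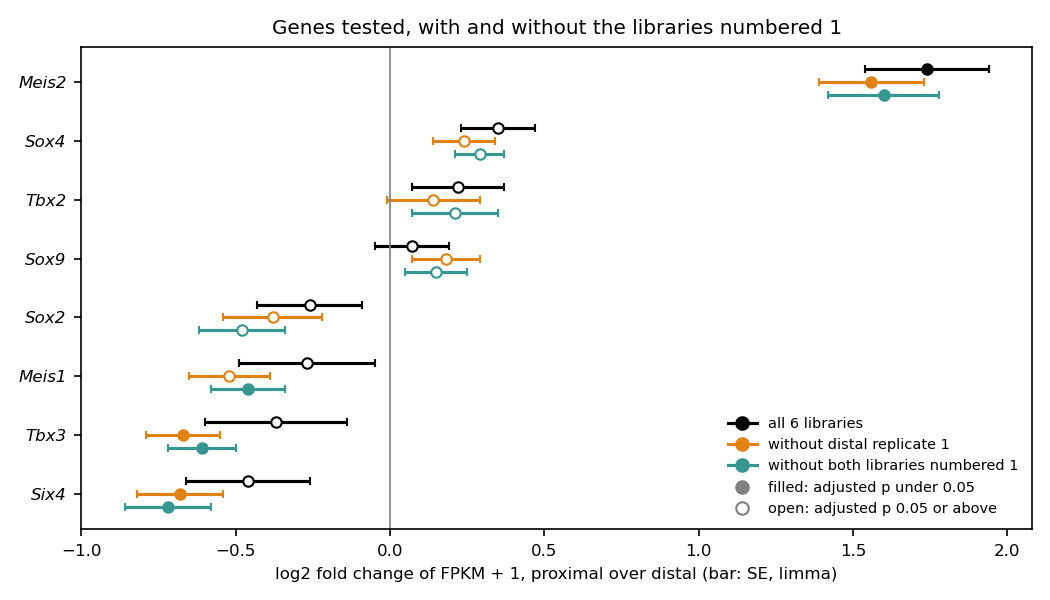
Log2 fold change of FPKM + 1, proximal over distal, of the 8 genes tested, with its standard error (bar), for all 6 libraries, without distal replicate 1 and without both libraries numbered 1; filled symbols have an adjusted p under 0.05. Meis2 stays at 1.56 or above, and the symbols of Six4 and Tbx3 move away from 0 and become filled on leaving out distal replicate 1.

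Pitx1, a paired-class homeodomain gene of hindlimb and pituitary, lies at chr13:55825051-55836192 on the reverse strand. It was at 0, 0.0190 and 0 FPKM in proximal libraries, against 0.0193, 0.0151 and 0.0175 FPKM in distal libraries. Where it was above 0, the value corresponds to about 0.990 of a fragment, that is, a lone fragment in the library. No difference was detectable at this depth. None of 17 PITX and other paired-class genes reached the mean of 1 FPKM, and the highest, Prrx2, averaged 0.777 ± 0.216 FPKM in proximal and 1.02 ± 0.102 FPKM in distal libraries (SD, n = 3 each).

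**Figure D4:**
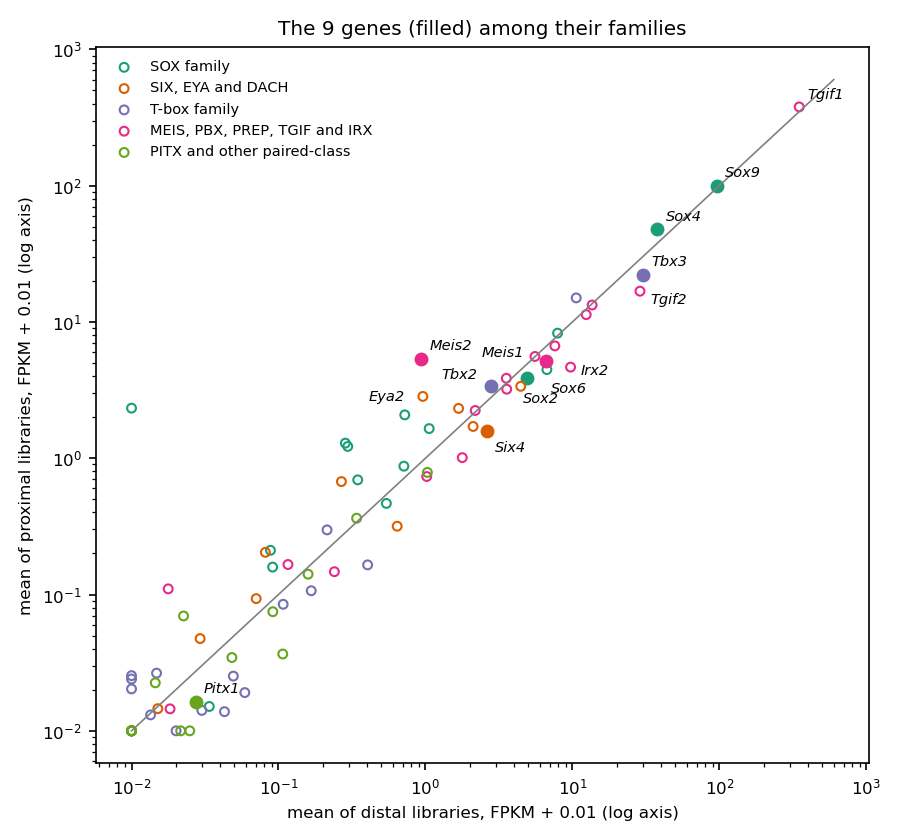
Mean FPKM of the 9 genes (filled) and of their families (open) in proximal libraries (vertical axis) and distal libraries (horizontal axis), both with 0.01 added and on log axes, with the line of equal levels. Meis2 and Eya2 lie above the line among the genes near 1 FPKM in distal cells, Tgif2 and Irx2 lie below it, and Sox9 lies on it.

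A wider list of 25 epithelial factors of the urogenital tract was read beside the 9 genes. Of these, 21 were tested, 3 rose, 2 fell and 16 did not pass, with a median of -0.04. Pparg, a nuclear receptor of urothelial differentiation, was at 4.18, 3.64 and 2.48 FPKM in proximal libraries, against 0.249, 0.239 and 0.151 FPKM in distal libraries (log2 difference 1.85, SE 0.18, limma adjusted p = 0.00125). Gata2, a zinc finger factor, was at 6.75, 6.35 and 5.57 FPKM in proximal libraries, against 3.04, 2.57 and 1.65 FPKM in distal libraries (log2 difference 1.10, SE 0.18, limma adjusted p = 0.0112), and this call did not hold without proximal replicate 2 (adjusted p = 0.0613). Shh was the third that rose. Of these, Pparg reached the mean needed for testing only through its proximal libraries.

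Hoxb13, a prostate homeobox gene whose product is a known partner of MEIS proteins in human cells, was among the 2 that fell. It was at 20.7, 18.9 and 17.2 FPKM in proximal libraries, against 26.7, 39.0 and 32.9 FPKM in distal libraries (log2 difference -0.75, SE 0.15, limma adjusted p = 0.0248). The groups did not overlap. The call did not hold in 4 of the 6 fits that leave out a library, with adjusted p-values of up to 0.102, nor with no filter on low values (limma adjusted p = 0.0559). Foxa1, the most abundant factor of this list, averaged 166 ± 12.8 FPKM in proximal and 179 ± 17.9 FPKM in distal libraries (SD, n = 3 each; limma adjusted p = 0.607).

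Some markers of other cell types also differed between the regions. Of 11 endothelial markers, 8 were tested, 6 rose and 2 did not pass, and their summed level was 24.2 to 35.5 FPKM in proximal libraries against 5.92 to 16.9 FPKM in distal libraries. None of them was at 0 in all libraries. Emcn, which encodes endomucin, was at 5.81, 6.26 and 6.32 FPKM in proximal libraries, against 2.89, 0.264 and 0.806 FPKM in distal libraries. By library, the endothelial sum was 35.5, 33.2 and 24.2 FPKM in proximal libraries, against 16.9, 5.92 and 8.63 FPKM in distal libraries. Of 11 nerve and glia markers, 5 were tested and 2 rose, with a sum of 23.8 to 31.4 FPKM in proximal libraries against 19.0 to 23.2 FPKM in distal libraries. These 2, and some of the endothelial markers and of the markers below that rose, reached the mean needed for testing only through the proximal libraries. This limits what the counts of markers that rose can show.

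Of 14 stromal markers, 8 were tested and 5 rose. Vim, which encodes the intermediate filament vimentin, was at 23.1, 27.3 and 23.7 FPKM in proximal libraries, against 8.42, 5.69 and 7.22 FPKM in distal libraries. The stromal sum, dominated by Dcn, was 713 to 782 FPKM in proximal libraries against 783 to 827 FPKM in distal libraries, and Pdgfra averaged 1.44 ± 0.294 FPKM in proximal and 1.36 ± 0.358 FPKM in distal libraries (SD, n = 3 each). Of 9 smooth muscle markers 7 were tested and none passed in limma, with sums of 269 to 277 FPKM in proximal libraries and 243 to 301 FPKM in distal libraries, and 1 of the 7 had an unadjusted p under 0.05. The part of endothelial, glial and stromal RNA in the difference of Meis2 was not tested.

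Of 10 urothelial markers, 6 were tested, 4 rose and 1 fell, with sums of 635 to 749 FPKM in proximal libraries against 366 to 464 FPKM in distal libraries. Krt5, which basal cells of the prostate also express, made up most of these sums. Krt13 was at 38.4, 34.3 and 31.3 FPKM in proximal libraries, against 7.52, 7.06 and 7.64 FPKM in distal libraries. The gene that fell was Krt20, at 1.56, 1.04 and 1.03 FPKM in proximal libraries, against 4.29, 2.86 and 3.80 FPKM in distal libraries (limma adjusted p = 0.0112). The uroplakin genes differed among themselves. Upk1a rose, from a mean of 0.626 FPKM in distal to 3.38 FPKM in proximal libraries. Upk3b averaged 1.52 FPKM in distal and 0.0148 FPKM in proximal libraries and was under the filter. Upk3a was listed at 0 in all libraries. The part of urothelial cells in the difference of Meis2 was not tested. For the seminal vesicle, 13 markers summed to 6.16, 181 and 491 FPKM in proximal libraries, against 7.09, 11.0 and 10.2 FPKM in distal libraries, and Pax2 was listed at 0 in all libraries. In the same libraries Meis2 was at 5.05, 4.77 and 6.27 FPKM in proximal cells, against 0.472, 1.39 and 0.921 FPKM in distal cells. The part of seminal vesicle RNA in the difference of Meis2 was not tested.

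Basal markers themselves differed between the regions. All 14 were tested, 7 rose and none fell, with sums of 9590 to 9750 FPKM in proximal libraries and 8110 to 9810 FPKM in distal libraries. Of 15 luminal markers 14 were tested, 4 rose and 2 fell, with sums of 3960 to 4140 FPKM in proximal libraries and 2810 to 3660 FPKM in distal libraries. Immune markers summed to 17.6 to 31.9 FPKM in proximal libraries and 23.2 to 28.2 FPKM in distal libraries, and the defining leukocyte gene Ptprc was at or near 0 throughout. Neuroendocrine markers summed to 10.2 to 12.3 FPKM in proximal libraries and 12.9 to 14.4 FPKM in distal libraries, most of it from Ncam1.

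Six4, Tbx3 and Meis1 were lower in distal replicate 1 than in the other distal libraries. So was the summed level of the dissociation and immediate early genes, which include the heat shock genes Hspa1a and Hspa1b. All 15 genes of this list were tested, 3 fell and 12 did not pass, with a median difference of -0.92. Egr2 was at 23.6, 27.3 and 25.8 FPKM in proximal libraries, against 35.4, 76.6 and 78.1 FPKM in distal libraries. Ier2 was at 306, 271 and 273 FPKM in proximal libraries, against 456, 628 and 568 FPKM in distal libraries. Both were lower in distal replicate 1 than in distal replicates 2 and 3, but not every gene of the list was. Ier3, the most abundant, was at 2000, 1920 and 2410 FPKM in proximal libraries, against 3120, 2760 and 3050 FPKM in distal libraries, and so highest in distal replicate 1. Trp63, the defining transcription factor of basal cells, was also lowest among distal libraries in replicate 1, at 27.8, 39.1 and 35.7 FPKM in proximal libraries, against 34.6, 74.7 and 66.2 FPKM in distal libraries, and did not pass (limma adjusted p = 0.169). Of all libraries, distal replicate 1 also had the fewest implied fragments, 22800000, and the fewest genes at 1 FPKM, 9947. The part of depth and that of the dissociation and immediate early response in the values of Six4, Tbx3 and Meis1 were not tested.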

How the data were processed

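Per the labels' protocols, RNA of 3 proximal and 3 distal basal samples was amplified with random and oligo(dT) primers and sequenced as DNA libraries on an Illumina HiSeq. The submitters' processing notes name bcl2fastq 1.8.3, TopHat, Cufflinks and mm10. The authors' annotation was not given in the sources used here. The authors deposited FPKM with confidence intervals for 63241 transcripts per library, without gene names, and the coverage of each transcript, a signal not scaled to depth, per the file headers.

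Transcripts were matched to GENCODE M21 genes on GRCm38 by position and length, and 53462 were assigned, holding 93.7 to 94.6% of the FPKM. A match by coding span, by which Sox4 was assigned, was added after the data were seen. In a check on 2000 reference transcripts, 91.3% were assigned, 99.9% of them to the right gene. FPKM were summed per gene, and genes averaging 1 FPKM or more entered limma 3.58.1 on log2(FPKM + 1) (R 4.3.3, lmFit and eBayes with trend, two-sided, no covariates) and Benjamini-Hochberg adjustment over all genes. The procedure was tested on simulated data. Alternatives were other pseudocounts, filters, scalings, matches and models, and leaving out libraries. Fragments per gene were derived from FPKM, transcript length and the depth implied by the confidence intervals, and short transcripts were left out.

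The genes and lists were chosen with earlier results of these data known. Genes outside the 9 were named by rule, as the up to 4 of a list that passed with the smallest p, the 2 with the highest mean, and the 3 nearest in profile to Meis2, and others were picked after their values were seen. A few genes are not reported here.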

Additional observations from a re-analysis of the deposited data

How the results depend on the processing

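In 19 alternative settings, the 8 tested genes gave 146 values. Of these, 139 kept their direction and their side of the threshold, 6 passed the threshold only in the alternative, 0 lost it and 1 changed sign. Meis2 passed in each of the 18 settings that tested it, with log2 differences of 1.18 to 2.51 and limma adjusted p-values of 0.00144 to 0.0287, and with 1.56 to 1.91 on leaving out each library. The 1.18 came from the highest transcript in place of the sum, which for Meis2 is the short non-coding RNA alone. That RNA did not pass over all transcripts (limma adjusted p = 0.0885). Close matches only, which leave this RNA out, gave 1.46 (limma adjusted p = 0.00265). With a filter at 5 FPKM, Meis2, Sox2, Tbx2 and Six4 were not tested, so 0 of the 9 genes were higher, and 277 genes were higher and 168 lower in all. No filter gave 142 lower genes and the highest transcript in place of the sum gave 169.

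The labels number replicates 1 to 3 in both groups. Same-numbered libraries deviated from their group means with correlations of 0.38, 0.05 and 0.29. A proximal library and differently numbered distal libraries gave -0.37 to -0.15 for number 1, -0.15 to 0.16 for number 2 and -0.31 to 0.13 for number 3. Numbers 1 and 3 thus stood out and number 2 did not. The main test did not take the numbers to pair the samples, and whether they do is not settled. With the replicate number as a block, 2 of the 9 genes were higher (Meis2, and Sox4 with 0.35 and adjusted p = 0.0299 in limma), and 894 genes were higher and 742 lower in all. Without both libraries numbered 1, 3 of the 9 were lower, namely Six4 (-0.72, adjusted p = 0.0181 in limma), Tbx3 (-0.61, 0.0139) and Meis1 (-0.46, 0.0417), and 919 genes were higher and 1393 lower in all. On leaving out 1 library, 0 to 2 of the 9 were lower, the 2 being Six4 and Tbx3 without distal replicate 1, and 206 to 537 genes were higher and 46 to 621 lower in all. In these fits Six4 ranged from -0.68 to -0.31, Tbx3 from -0.67 to -0.18, Meis1 from -0.52 to -0.13 and Sox9 from -0.01, without distal replicate 3, to 0.18. The log2 ratio of Meis1 to Meis2 differed by -2.81 with 0.1 FPKM added and by -2.97 with none. Sox4 has no value where only the first kinds of match are used. The cause of these shifts was not tested. Depth limits Pitx1 and the individual Meis2 transcripts.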
